A study of Mus musculus with 4 samples.

Results

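The ADAMTS proteases and the TIMP inhibitors were followed through dermal fibroblasts called Rbpj-deleted here and their controls. The set holds 10 listed genes, Adamts1, Adamts2, Adamts4, Adamts5, Adamts9, Adamts12 and Timp1 to Timp4, and every probe set annotated to 1 of them alone was taken, whatever its value. That gave 25 probe sets for 9 genes, of 18193 genes named on the arrays. Adamts2 had no probe set in the annotation used and is not analysed here. Of the 25 probe sets, 18 had a mean at or above the level cutoff (log2 5.28, the 40th percentile of gene means), which left 8 genes, since both probe sets of Timp4 lay under it.

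The study compared 4 arrays of dermal fibroblast RNA, 1 array per group, from mice on a C57BL/6 background. In the in vitro pair, cells labelled Adeno Cre (an adenovirus carrying Cre recombinase, which deletes the RBP-Jk gene) were set against cells labelled Adeno GFP. In the in vivo pair, fibroblasts of ColI Cre x RBP loxp-loxp mice were set against fibroblasts of RBP loxp-loxp mice, which carry the floxed gene without Cre. The labels do not say whether the in vitro cells carried the floxed gene, which collagen I promoter drove the Cre, how old the animals were, or whether animals were pooled. A single array stands for each group, so differences within a pair could not be set against replicate spread and carry no p-value. Every value below is on the log2 scale after quantile normalization unless called a fold, and every difference is the deleted minus the control array.

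ADAMTS enzymes are secreted zinc metalloproteases with thrombospondin repeats that anchor them in the extracellular matrix. Several of them cut the large proteoglycans aggrecan and versican, and others trim procollagen. TIMPs are small secreted proteins that block the active site of matrix metalloproteases and, for TIMP-3 above all, of ADAM and ADAMTS enzymes. Fibroblasts of the dermis make both sides of this balance. RBP-J kappa, also called CSL, the product of Rbpj, binds DNA and recruits the cleaved Notch receptor to its target genes.

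Rbpj itself was checked first. Its brightest probe set read 7.48 in the deleted and 8.58 in the control culture, and 8.51 in the deleted and 8.61 in the control array in vivo, so the deleted culture was the lowest of the 4. Of its 3 probe sets, 2 were lower in vitro (-1.11 and -1.34, the other at 0.10) and all 3 were lower in vivo (-0.10, -0.49 and -0.83). Where these probe sets lie relative to the deleted exons was not used here. All 10 fibroblast markers examined were above the cutoff on all 4 arrays. Over the 10916 genes above the cutoff the median difference was -0.06 for the cultures and -0.03 in vivo, with an SD over genes of 0.40 and 0.55.

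In the in vivo pair, 5 of the 8 measured members were lower in the deleted array, against 53.6% of all genes, and 3 of them by at least 2-fold: Adamts1, Adamts5 and Timp2. A 2-fold lower value was found for 3.81% of all genes in that pair. No member was at least 2-fold higher in vivo, against 2.81% of genes. In the in vitro pair no member differed by 2-fold in either direction, against 0.788% of genes higher and 1.15% lower, and 5 of 8 were higher at all, against 42.5% of genes. The median over the 8 members was -0.82 in vivo and 0.25 in vitro.

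**Figure D1:**
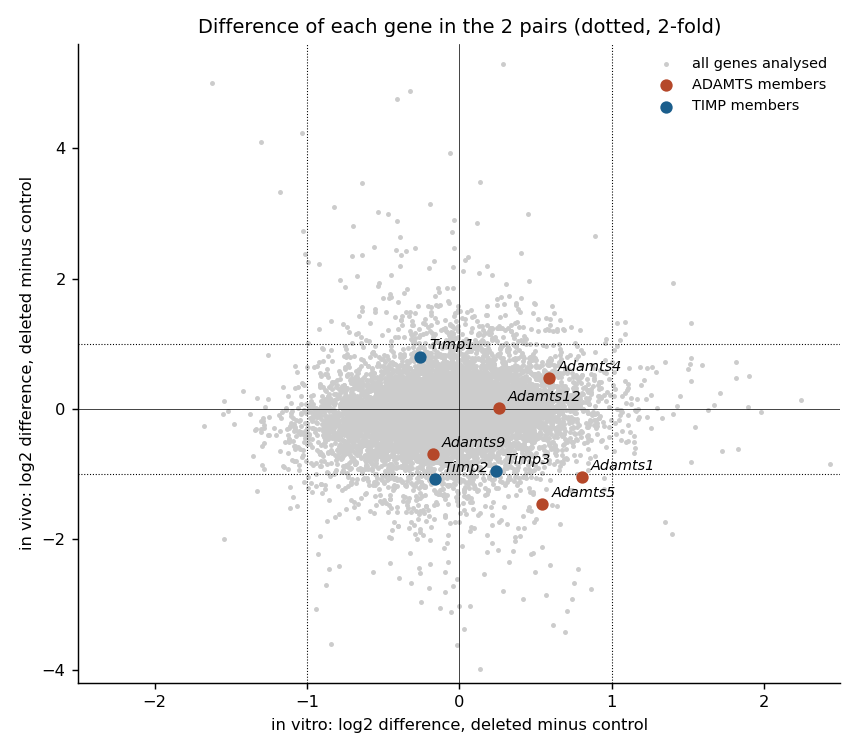
Log2 value of the deleted array minus that of its control in vitro (x axis) and in vivo (y axis) for the genes analysed (grey), the 5 ADAMTS members (red) and the 3 TIMP members (blue), each gene by its brightest probe set. Adamts1, Adamts5 and Timp2 lie below the lower dotted 2-fold line of the y axis, and no member lies beyond a dotted line of the x axis.

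Among the members that cut aggrecan and versican, Adamts5, the principal aggrecanase of mouse cartilage, differed most in vivo. Its brightest probe set read 11.22 in the deleted and 10.68 in the control culture, and 9.56 in the deleted and 11.02 in the control array in vivo. The deleted in vivo array was thus the lowest of the 4 and the deleted culture the highest. The in vivo difference of -1.46 corresponded to a 2.75-fold lower level, at percentile 1.37 of all genes.

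The other probe sets of Adamts5 gave like values in vivo. Those above the cutoff differed by -1.42 and -1.82 (2.68-fold and 3.54-fold lower), so the mean over the 3 was -1.57 ± 0.22 (SD over probe sets, a technical spread). In vitro the same 3 were at 0.28 to 0.54. The remaining probe set read between 3.52 and 3.58 on all arrays, under the cutoff, and gives no comparison. One of the dimmer probe sets is annotated to the same cDNA as the brightest, so these readings are not independent of each other.

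Adamts1, a versican-cleaving protease that also binds VEGF, had 1 probe set. It read 11.31 in the deleted and 10.50 in the control culture, and 9.48 in the deleted and 10.53 in the control array in vivo. The controls of the systems therefore stood level (0.03 apart), with the deleted culture above both and the deleted in vivo array below both. The differences were 0.80 in vitro (1.75-fold higher, percentile 98.3 of all genes) and -1.05 in vivo (2.07-fold lower, percentile 3.42). No second probe set was there to check either value. Adamts1 and Adamts5 are neighbours on 1 chromosome, with 0 protein-coding genes between them in the RefSeq table (assembly GRCm38.p6).

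Adamts4, an aggrecanase that inflammatory cytokines induce, was higher in the deleted array of both pairs. Its brighter probe set read 7.79 and 7.20 in vitro (deleted, control) and 8.19 and 7.72 in vivo, differences of 0.59 and 0.47. Its second probe set was nearly flat, at 0.03 in vitro and 0.08 in vivo. The higher level of Adamts4 is thus carried by 1 of its 2 probe sets.

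Adamts9, a versicanase present in many tissues, read 8.13 in the deleted and 8.31 in the control culture, and 7.96 in the deleted and 8.66 in the control array in vivo. The deleted array was lower in both pairs, with a difference of -0.17 in vitro and of -0.69 in vivo (1.62-fold lower). Its other probe sets were under the cutoff, at 3.50 to 4.53. Adamts12, which degrades cartilage oligomeric matrix protein, read 8.67 and 8.41 in vitro (deleted, control) and 7.77 and 7.76 in vivo. Its in vivo difference of 0.01 was the smallest of the 8, and both cultures were above both in vivo arrays.

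**Figure D2:**
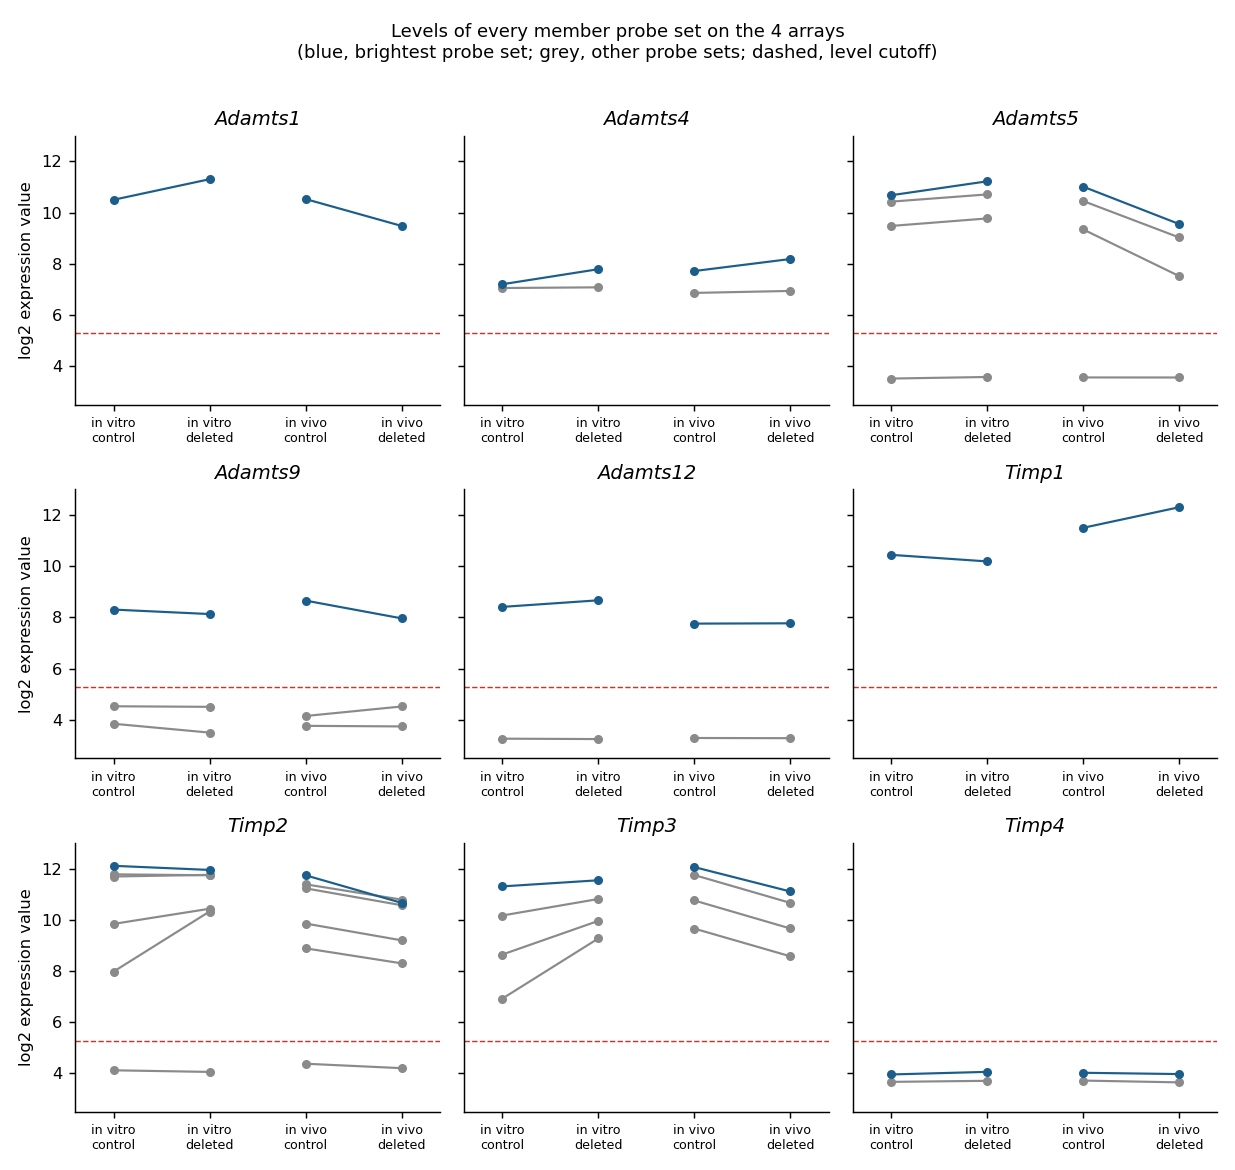
Log2 expression value of each probe set of the 9 members with one, on the 4 arrays (x axis), with lines joining the control and the deleted array of a pair. Blue marks the brightest probe set of a gene, grey the others, and the dashed line the level cutoff of 5.28. The lines of Timp3 fall in parallel in vivo but converge in vitro, where the control points spread from 6.92 to 11.30.

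Among the inhibitors, Timp1, a TIMP that growth factors and cytokines readily induce, was the 1 member of the 3 measured TIMPs that was higher in the deleted in vivo array. Its 1 probe set read 12.30 there and 11.50 in the in vivo control, against 10.19 in the deleted and 10.44 in the control culture. The in vivo difference was 0.80 (1.75-fold higher, percentile 95.6 of all genes) and the in vitro difference -0.26. Both in vivo arrays were above both cultures, and the controls alone were 1.05 apart (2.08-fold), a gap in which the system and the array run cannot be told apart. By the brightest probe set no other member differed by 2-fold between the controls, against 4.54% of genes at least 2-fold higher in the in vivo control and 5.82% lower. The other 3 probe sets of Timp3 were 2.99-fold to 6.67-fold higher in the in vivo than in the in vitro control.

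Timp2, the inhibitor that also takes part in activating pro-MMP-2 on the cell surface, was lower in the deleted in vivo array on all 5 probe sets above the cutoff. The brightest read 10.66 there and 11.74 in the control, a difference of -1.08 (2.11-fold lower), and 11.94 in the deleted and 12.11 in the control culture. The deleted in vivo array was the lowest of the 4. The other 4 differed by -0.59 to -0.66, short of 2-fold. The direction was thus shared by the probe sets, while the 2-fold call rested on the brightest alone.

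Timp3, the TIMP that binds to the matrix and the main inhibitor of Adamts4 and Adamts5, showed the reverse arrangement of its probe sets. Its brightest probe set read 11.10 in the deleted and 12.06 in the control in vivo array, a difference of -0.95 (1.94-fold lower) that missed the 2-fold line, and 11.54 in the deleted and 11.30 in the control culture. The other 3 probe sets differed by -1.08 to -1.09 (2.12-fold to 2.13-fold lower). The mean over the 4 was -1.05 ± 0.07 (SD over probe sets), the smallest spread of a member with several probe sets. All 4 are annotated to 1 cDNA.

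Timp4, which is known from heart and fat more than from skin, read between 3.65 and 4.06 on all arrays and both probe sets. These values lie near the bottom of the scale and give no comparison.

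Counted by probe set, 8 of the 18 above the cutoff were at least 2-fold lower in vivo, against 3.34% of all named probe sets above it. None was at least 2-fold higher in vivo, against 2.86% of probe sets. The 8 came from 4 genes: 1 from Adamts1, 3 from Adamts5, 1 from Timp2 and 3 from Timp3. Of the 18, 14 were lower at all, among them 5 of Timp2, 4 of Timp3 and 3 of Adamts5. The share of all probe sets lower at all was not counted, so 14 of 18 is not read as an excess. By gene, 5 of the 8 measured members were lower, against 53.6% of all genes. Probe sets of a gene measure the same RNA and are not replicates of the condition.

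In vitro the probe sets of Timp2 and Timp3 did not give 1 value. For Timp3, in order from the brightest to the dimmest, the differences were 0.24, 0.65, 1.31 and 2.35, so the reading ran from 1.18-fold to 5.10-fold higher. For Timp2 the 3 brightest lay between -0.16 and 0.07, and the dimmer ones were at 0.59 and 2.35. The direction of Timp2 in vitro therefore depends on the probe set.

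On the dimmest probe sets the control culture read lowest. The dimmest Timp3 probe set read 6.92 there, against 9.27 in the deleted culture, 8.57 in the deleted and 9.65 in the control array in vivo. The dimmest Timp2 probe set above the cutoff read 7.97 there, against 10.32 in the deleted culture, 8.30 in the deleted and 8.88 in the control array in vivo. For Timp3 the control culture stood apart below the other 3 arrays. For Timp2 it was close to the deleted in vivo array, and the deleted culture stood above the other 3. On the brightest Timp2 probe set the control culture was the highest of the 4 (12.11).

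Among the 4575 genes with several probe sets above the cutoff, the median gap between the highest and lowest in vitro difference was 0.48. The gap was 2.51 for Timp2 and 2.11 for Timp3, at percentiles 99.2 and 98.0 of those genes. In vivo the gaps were 0.49 and 0.14, against a median of 0.28. For Adamts5 the in vitro gap was only 0.26.

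Other measurements moved with this pattern. The 3' probe set of the control gene Actb exceeded the 5' probe set by 1.11 in the control culture and by 0.40 in the deleted culture, and that of Pcx by 3.16 and 2.01, while Tfrc went the other way (0.96 and 1.45). For Gapdh the excess was 0.02 in the deleted culture and larger by 0.98 in the control culture. In vivo (control, deleted) the excess was 0.41 and 0.15 for Actb, 0.14 and 0.13 for Gapdh, 1.10 and 0.83 for Pcx and 1.25 and 1.54 for Tfrc. Over all genes, 8.53% of the probe sets that are not the brightest of their gene were at least 2-fold higher in the deleted culture, against 0.788% of the brightest ones. Counted by probe set, 3 of the 18 member probe sets were at least 2-fold higher in vitro, 1 of Timp2 and 2 of Timp3, and the share over all named probe sets was 3.87%. None was at least 2-fold lower in vitro, against 1.16%. The part of RNA quality in these values was not tested.

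**Figure D3:**
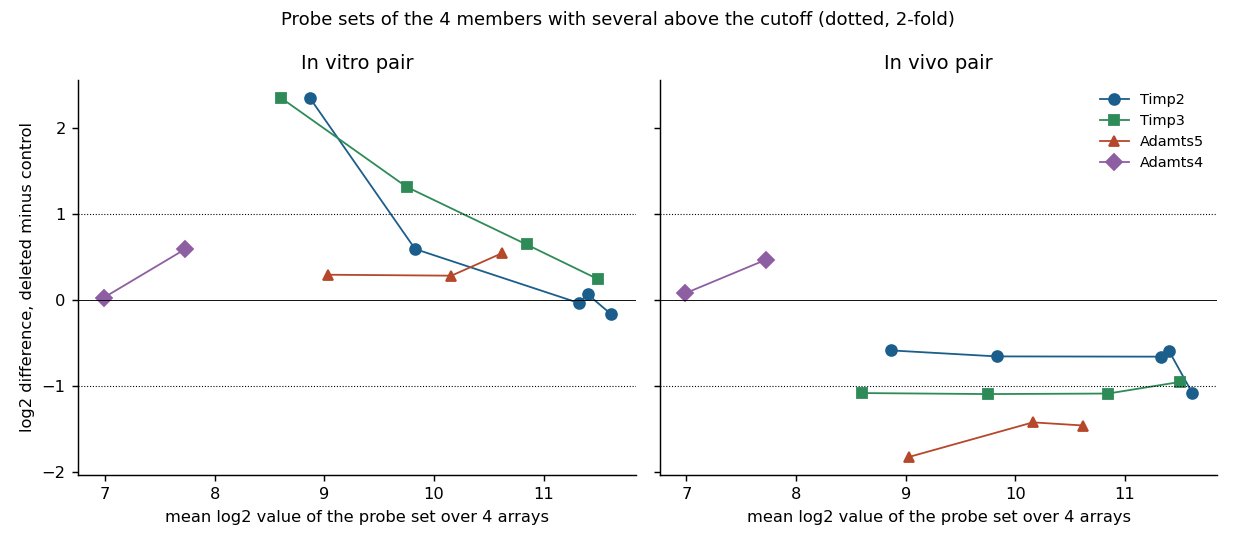
Deleted minus control on the log2 scale (y axis) against the mean log2 value of the probe set over the 4 arrays (x axis), for the 4 members with several probe sets above the cutoff, in vitro (left) and in vivo (right). The dimmer probe sets of Timp2 and Timp3 reach 2.35 in vitro, whereas in vivo all probe sets of Timp3 lie between -1.09 and -0.95.

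A deletion effect common to both pairs was fitted with limma over the 10916 genes, with the system as a covariate and 1 residual degree of freedom per gene before moderation. No member and no gene passed a Benjamini-Hochberg adjusted p of 0.05, and at an unadjusted p under 0.05 there were 0 of 8 members and 759 genes. Adamts4 came closest, at 0.53 ± 0.20 (SE), higher in 2 of 2 pairs, with an unadjusted limma p of 0.050 and an adjusted p of 0.68. The other members had adjusted p-values from limma of up to 0.96, that of Adamts1, whose 2 differences had opposite signs. For Timp2 the common effect was -0.62 ± 0.29 and for Adamts9 -0.43 ± 0.23, both with an adjusted limma p of 0.69. A difference between the pairs has no test in this design.

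RBP-J kappa acts at DNA, and its core recognition sequence can be looked for in promoters. Adamts1, Adamts5, Adamts9, Timp2 and Timp3 were lower in vivo on every probe set above the cutoff. Of these, Adamts5 had no promoter window, and that of Adamts9 was searched but is not printed. The promoters shown are those of Timp1, the member with the largest in vivo excess, and of Adamts1, Timp2 and Timp3. Each is the 250 bases before the RefSeq start site (GRCm38.p6), 5′ to 3′ on the strand of the gene: chrX:20869916-20870165, plus strand; chr16:85803114-85803363, minus strand; chr11:118355412-118355661, minus strand; chr10:86300162-86300411, plus strand. Capitals mark a match to TGGGAA.
Timp1: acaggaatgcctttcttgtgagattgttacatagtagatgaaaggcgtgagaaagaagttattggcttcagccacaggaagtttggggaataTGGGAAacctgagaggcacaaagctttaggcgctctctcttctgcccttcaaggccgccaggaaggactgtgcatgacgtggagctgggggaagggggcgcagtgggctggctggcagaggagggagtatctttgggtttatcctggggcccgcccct
Adamts1: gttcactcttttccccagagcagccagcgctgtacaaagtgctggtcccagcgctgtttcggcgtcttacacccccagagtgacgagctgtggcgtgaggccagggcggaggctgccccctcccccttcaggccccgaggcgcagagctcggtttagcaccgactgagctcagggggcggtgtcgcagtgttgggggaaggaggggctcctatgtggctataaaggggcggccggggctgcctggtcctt
Timp2: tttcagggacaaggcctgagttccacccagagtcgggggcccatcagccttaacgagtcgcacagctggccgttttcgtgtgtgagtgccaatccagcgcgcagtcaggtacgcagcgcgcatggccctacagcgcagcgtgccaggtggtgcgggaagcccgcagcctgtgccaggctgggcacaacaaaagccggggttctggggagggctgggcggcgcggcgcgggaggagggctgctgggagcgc
Timp3: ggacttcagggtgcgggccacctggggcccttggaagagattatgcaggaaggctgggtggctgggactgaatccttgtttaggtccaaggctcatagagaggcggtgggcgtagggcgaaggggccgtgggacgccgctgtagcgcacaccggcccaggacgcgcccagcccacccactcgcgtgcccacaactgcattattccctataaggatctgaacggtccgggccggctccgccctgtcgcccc

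The core TGGGAA was searched on both strands in the windows of the 8 listed members that had one, Adamts2 and Timp4 among them. Adamts4 and Adamts5 had no window in the source used, so their promoters were not searched. The core was found once, in Timp1, starting 158 bases before the start site on the strand of the gene. Of all 32851 promoter windows of this length, 21.6% held it, so 1 of 8 is near that share. The AP-1 sequence TGANTCA, whose reverse complement is the same pattern, was found in 0 of the 8, against 6.75% of all windows. A match in letters is not a binding site, and its lack says nothing of sites elsewhere.

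The pathway around the members was described with lists of related genes. Of the other ADAMTS proteases, 10 had a probe set and 5 were above the cutoff. Adamts15, another versicanase, was 2.83-fold lower in the deleted in vivo array (4.31 against 5.81, the deleted value under the cutoff) and lower in vitro too (6.83 against 7.52). Adamts10, which acts on fibrillin microfibrils, was at -0.88 in vivo and -0.46 in vitro, with its second probe set at -0.15 and 0.15. Adamts16 (0.31 in vivo) and Adamts6 (0.06) were close to their controls, and the median of the 5 was -0.06 in vivo.

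ADAMTS-like proteins share the ancillary domains of the proteases but lack the catalytic one. Of 5 above the cutoff, 4 were lower in vivo, against 53.6% of all genes, with a median of -0.37. Adamtsl1 was 2.33-fold lower (4.83 against 6.05, the deleted value under the cutoff), and Adamtsl3, Adamtsl4 and Adamtsl2 were at -0.68, -0.37 and -0.24. None differed by 2-fold in vitro.

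The substrates include proteoglycans and the collagens whose propeptides ADAMTS enzymes remove. Of 10 above the cutoff, 9 were higher in vitro (42.5% of all genes) and 8 were lower in vivo (53.6%), and 0 differed by 2-fold in either pair. Vcan, the gene of versican, was at 0.41 in vitro and -0.80 in vivo, but over its 3 probe sets the range was 0.41 to 0.99 in vitro and -0.80 to 0.04 in vivo. Fmod, the collagen-binding proteoglycan fibromodulin, was at -0.33 and -0.66, with ranges of -1.06 to -0.33 and -0.96 to -0.66 over its 5 probe sets. Nid1, a basement membrane protein, was at 0.40 and -0.42, but its second probe set was at 1.82 and 0.01. Col5a1, a collagen chain, was at 0.53 and -0.01. Acan, the gene of aggrecan, was under the cutoff. Of this list, Col1a1, Col1a2, Col3a1 and Dcn were also counted as fibroblast markers.

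Among cofactors, activators and clearance factors, 10 of 10 were above the cutoff. Efemp1, whose product fibulin-3 binds TIMP-3, was 6.58-fold lower in the deleted in vivo array (6.87 against 9.59) and flat in vitro (-0.04). The hyaluronan receptor Cd44 was higher in both pairs (0.54 and 0.72), with a range over its 3 probe sets of 0.54 to 2.74 in vitro and 0.72 to 1.05 in vivo. Fbln1, a cofactor of Adamts1, was at 0.32 in vitro and -0.65 in vivo (0.01 to 0.32 and -0.93 to -0.17 over its 3 probe sets), and the proprotein convertase Pcsk5 at -0.27 and 0.59. The median of the list was -0.05 in vivo.

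Of 9 metalloproteases that TIMPs inhibit, 7 were lower in vivo, against 53.6% of all genes, and none by 2-fold. In the same pair 2 were at least 2-fold higher, against 2.81% of all genes. Mmp3, stromelysin-1, was 6.61-fold higher in vivo (7.66 against 4.94, the control under the cutoff) and 2.03-fold lower in vitro. Mmp9, a gelatinase, was 3.11-fold higher in vivo (7.04 against 5.40). Mmp2 and Adam10 were at -0.52 and -0.42 in vivo, and the 4 probe sets of Adam10 ranged from -0.42 to -0.02. Among other inhibitors, Reck, a membrane-anchored inhibitor of several metalloproteases, was 5.11-fold lower in vivo (5.96 against 8.31) and Tfpi2, mainly a serine protease inhibitor, 11.2-fold higher (8.29 against 4.80, the control under the cutoff). Pcolce, which enhances procollagen C-proteinase and whose product is not itself a TIMP, was at -0.22. No gene of these lists passed the limma test of the common effect.

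**Figure D4:**
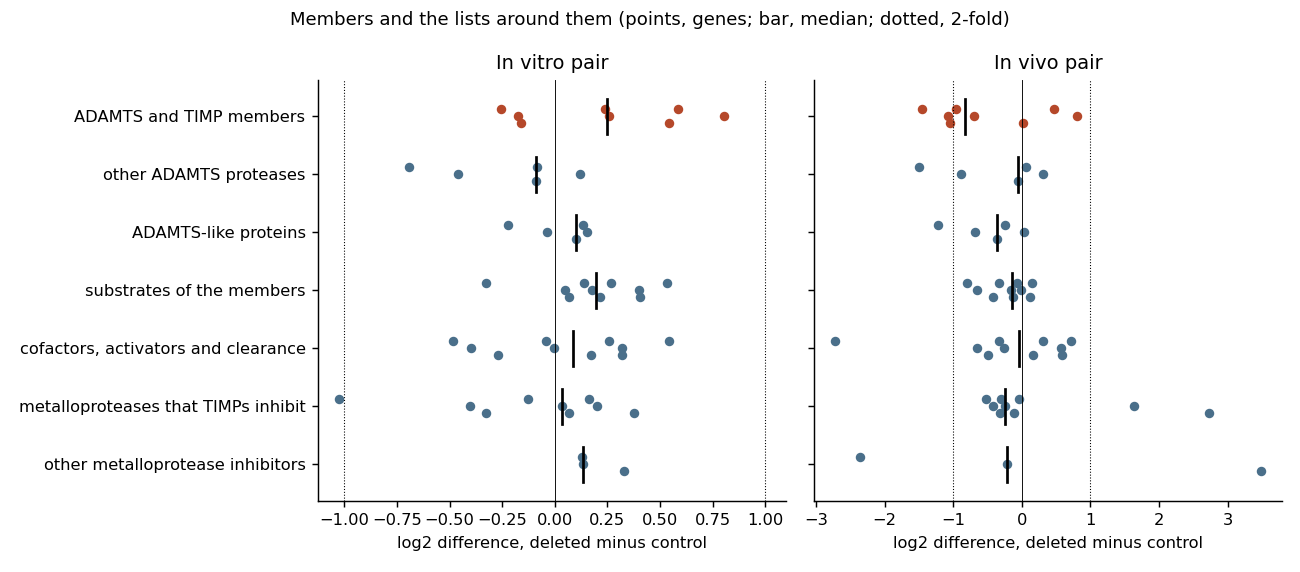
Log2 difference between deleted and control (x axis; the panels have different ranges) for the genes above the cutoff among the 8 members (red) and in 6 lists of related genes (blue), in vitro (left) and in vivo (right). Bars are medians, -0.82 for the members in vivo, and the points farthest from 0 in vivo are Tfpi2, Mmp3, Efemp1 and Reck.

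Markers of other cell types differed within the in vivo pair as well. Of 11 keratinocyte markers above the cutoff, 8 were at least 2-fold higher in the deleted in vivo array, against 2.81% of all genes. The mean over all 13 with a probe set was 7.92 in that array, 5.55 in its control, and 5.88 and 6.40 in the deleted and control cultures. Of 9 skeletal muscle markers, 8 were at least 2-fold higher, with a mean over 12 of 7.27 against 5.68 (4.97 and 5.33 in vitro). A marker high in that array alone could pass the cutoff, which was set on the mean of the 4 arrays. Macrophage markers had means of 4.99 and 5.14 and endothelial markers of 4.95 and 4.96 (deleted, control), with most of their genes under the cutoff. Among the macrophage markers Lyz2 was 2.09-fold lower. The 3 adipocyte markers above the cutoff were at 0.70 (Adipoq), 0.23 (Fabp4) and 0.03 (Pparg) in vivo, and none differed by 2-fold. Of the fibroblast markers, 9 of 10 were within 2-fold in vivo, Pdgfra at -0.59 among them, and Lum was at -1.06. In vitro, 3 of the 11 keratinocyte and 1 of the 9 skeletal muscle markers were at least 2-fold lower (1.15% of all genes). The part of the other cells in the members' values was not tested in either pair. In bulk RNA, fewer cells of a type and less RNA per cell cannot be told apart.

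For each member at least 2-fold different in a pair, the genes with the most similar pattern were those whose 4 values, less their own mean, lay at the smallest Euclidean distance. Nearest to Adamts5 were Irs1 (distance 0.07), an adaptor of insulin receptors, Lacc1 (0.21) and Cpt1a (0.26), the mitochondrial carnitine palmitoyltransferase. Nearest to Adamts1 were Lurap1l (0.15), Oxr1 (0.18) and Spry1 (0.21), a feedback inhibitor of receptor tyrosine kinase signalling, which differed by 0.66 in vitro and -0.88 in vivo. Nearest to Timp2 were Triqk (0.03), Tcn2 (0.08), a cobalamin carrier, and Dmac2l (0.09). With 4 arrays and 10916 genes, close patterns are common, and the lists are a description only.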

How the data were processed

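The deposited table holds log2 expression values, read as log2 from their range (2.87 to 13.79) over 45101 probe sets; how the authors summarised and normalized the arrays is not given in the sources used here. Upper quartiles differed between the columns (6.91 to 7.18), and quantile normalization was therefore applied with limma 3.58.1 in R 4.3.3. Labelling began from an oligo(dT) primer on poly(A) RNA, per the labels' protocols, so a reading depends on RNA integrity and on distance from the 3' end. Gene names came from the annotation of the platform, where 34945 probe sets had 1 gene, of which 34741 matched RefSeq by gene identifier, and 932 had several and were not named. Each gene was represented by the probe set with the highest mean, every probe set of a member was reported, and genes under the 40th percentile of gene means were not counted. A difference is the deleted minus the control array, and a call within a pair is a 2-fold difference with no test. The effect common to the pairs was fitted with limma (lmFit and eBayes) and adjusted by the Benjamini-Hochberg method. The procedures were run on simulated data with large changes of the same sign in both pairs and little noise. That run does not show their power for differences of the size seen here. The number of arrays limits the precision.

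Named were all members, Rbpj, up to 4 genes per list with the largest absolute difference in either pair, and the 3 genes with the nearest pattern; marker genes, Acan, Actb, Gapdh, Pcx and Tfrc were named outside that rule, after their values were seen. The members and lists were chosen with earlier results of these data known. Alternatives were the deposited values, centring, loess, an added background, other probe set rules, level filters, fold thresholds, and for limma a variance trend and no system term. Normalizing and filtering each pair alone was added after seeing the data.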

Additional observations from a re-analysis of the deposited data

Results flagged for a closer look

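In 4 of the 8 measured members the in vivo difference had the opposite sign to the in vitro difference. Over all genes, 42.5% were higher in vitro and 53.6% lower in vivo. The share of all genes with opposite signs was not counted, so 4 of 8 is not read as a trait of the members. Adamts1 was at -1.05 in vivo and 0.80 in vitro, Adamts5 at -1.46 and 0.54, and Timp3 at -0.95 and 0.24, whereas Timp1 was at 0.80 in vivo and -0.26 in vitro. Each system has 1 pair of arrays, so the difference between the systems was not tested. For Timp3 and Adamts5 every probe set above the cutoff shared these signs, while Timp1 and Adamts1 have 1 probe set each.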

How the results depend on the processing

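The in vivo count of 3 members lower and the in vitro counts of 0 were the same with the deposited values, centring, loess, an added background, no or a stricter level filter, leaving out _x_at and _s_at probe sets, and each pair alone; the members called lower in vivo were Adamts1, Adamts5 and Timp2 in each of these. Taking the median over the probe sets of a gene also gave 3, but Timp2 (-0.66) left it and Timp3 (-1.09) entered it. The in vitro difference of Timp2 was then 0.32 in place of -0.16, and that of Timp3 was 0.98 in place of 0.24. Under that rule Adamts9 fell under the level cutoff and was not counted. At 1.5-fold, 5 members were lower in vivo (11.2% of all genes), 1 was higher in vivo (8.02%) and 2 were higher in vitro (5.1%). At 3-fold, 0 were lower in vivo (1.03%). Counting every probe set gave 8 lower in vivo and 3 higher in vitro. No member was called by limma under any alternative, and the smallest adjusted p of a member was 0.64, with the stricter filter. Filters, fold thresholds and the choice of suffix left the values of the single members as they were. The other alternatives gave 90 values that moved at all, of which 86 had the same direction and side of the 2-fold line. The exceptions were Timp2 in both pairs and Timp3 in vivo, as given above, and Adamts12 in vivo, at 0 in the deposited values. The limma model pairs the arrays by system; without that term it also called 0 members and 0 genes. Leaving out an array of a pair leaves no difference to report. Values near 4, such as those of Timp4, lie near the background and limit any comparison.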
